A study of Homo sapiens with 12 samples.

Results

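The 28 genes described here make, sense, take up and move cholesterol, and they were taken from the deposited tables by a list of names, which was drawn up with earlier results of these data known. All 28 are among the 28265 genes of the expression table, and 26 of them hold 81 of the 46178 regions of the table of N6-methyladenosine (m6A), a methyl mark inside mRNA that influences its splicing, decay and translation. The cells were HepG2, an established human liver tumour line that is 1 line from 1 tumour. One group was treated with toosendanin, a triterpenoid from Melia toosendan known for liver toxicity, and the other was labelled as control; no genetic change is named, and the labels give neither a dose nor a time. Each group had 3 libraries of RNA pulled down with an m6A antibody (IP) and 3 libraries of the RNA before pull-down (input), 12 in all.

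Cholesterol is built from acetyl-CoA through mevalonate, farnesyl diphosphate, squalene and a series of sterols, largely in the endoplasmic reticulum. The transcription factor SREBP-2, encoded by SREBF2, is held in that membrane by SCAP and the INSIG proteins while sterol is plentiful, and moves to the Golgi to be cleaved when sterol falls, after which it switches on the genes of synthesis and uptake. Hepatocytes are the main cells of whole-body cholesterol balance, and HepG2 cells are a common model for this control. Oxysterols act the other way through the LXR receptors, which raise efflux pumps and MYLIP, a ubiquitin ligase that removes lipoprotein receptors.

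The control regions of the m6A table summed to 42316089 IP and 34131862 input counts, and the toosendanin regions to 29094328 and 24253006, pooled by the authors across libraries. Values per library were not analysed here, and the labels do not say whether libraries came from separate cultures, so p-values for expression reflect only variation among these libraries, possibly technical. The hepatocyte markers ALB, AFP, FGB, APOH, AMBP and VTN had mean normalized counts between 1836 (VTN) and 161730 (ALB) in the authors' deposited table. Of 6 markers of other cells, PTPRC, COL1A1 and COL1A2 were listed at 0, PECAM1 at 6.94 and VWF at 13.1, while CD68, a macrophage marker that is also a general lysosomal protein, stood at 1426 in the authors' deposited table. A listed 0 does not show that a marker is absent, since 9159 genes of that table are at 0, INSIG1 among them. In bulk RNA, fewer expressing cells and less RNA per cell cannot be told apart.

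The promoters of 24 members, 250 bases before to 50 after the start site, were in the RefSeq table (GRCh38.p14), with up to 3 per gene. FDFT1, SQLE, ACAT2 and SOAT2 had no entry. The motif CCAAT, which the factor NF-Y binds and which often stands beside SREBP sites, was searched on both strands and occurred in 20 of the 24 genes (83.3%), against 39.7% of all 27305 genes of that table, coding and noncoding, and 43.4% of the 6769 genes there whose mean normalized count lay in the upper 50%. Per promoter the shares were 66.7% of 33 and 34.6% of 35116. The GC box GGGCGG, a site of SP1, occurred in 23 of 24 members (95.8%), against 48.3% of all genes and 78.7% of the well counted ones. A strict sterol response element core, TCACCCCAC, occurred in SREBF2 alone of the 24, against 0.535% of all genes, and the looser TCACNCCAC, which contains it, again in SREBF2 alone, against 1.39%. The lysosomal E-box TCACGTGA occurred in INSIG1 alone, against 1.18%. CCAAT was present in 5 of the 5 members with higher expression that had a promoter in the table (MSMO1, NSDHL, EBP, STARD4, NPC2), and also in MVD and MYLIP, which fell. A match describes letters in this window and is no proof of a site.

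The 5 promoters below are those of the master regulator, of the 3 members with the smallest adjusted p among those that rose, and of MVD, the mevalonate enzyme that fell. Capitals mark CCAAT on either strand and, in SREBF2, the sterol response element core. They lie at chr22:41832855-41833154 on the + strand (SREBF2), chr4:165327419-165327718 on + (MSMO1), chrX:48521558-48521857 on + (EBP), chr14:74493463-74493762 on the - strand (NPC2, 1 of 2 in the table) and chr16:88663042-88663341 on - (MVD), all of GRCh38.p14.
SREBF2: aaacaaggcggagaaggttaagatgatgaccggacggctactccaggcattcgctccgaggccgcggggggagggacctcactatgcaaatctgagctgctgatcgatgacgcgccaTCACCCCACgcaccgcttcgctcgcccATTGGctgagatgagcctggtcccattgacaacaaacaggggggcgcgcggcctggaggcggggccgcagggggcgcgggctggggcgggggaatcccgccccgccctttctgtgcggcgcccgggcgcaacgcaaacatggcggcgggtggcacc
MSMO1: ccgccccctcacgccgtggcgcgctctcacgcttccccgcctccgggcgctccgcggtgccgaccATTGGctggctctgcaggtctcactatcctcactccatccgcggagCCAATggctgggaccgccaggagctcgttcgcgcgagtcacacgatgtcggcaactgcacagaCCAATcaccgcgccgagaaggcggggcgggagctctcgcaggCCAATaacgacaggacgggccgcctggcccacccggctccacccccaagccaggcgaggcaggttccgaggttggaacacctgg
EBP: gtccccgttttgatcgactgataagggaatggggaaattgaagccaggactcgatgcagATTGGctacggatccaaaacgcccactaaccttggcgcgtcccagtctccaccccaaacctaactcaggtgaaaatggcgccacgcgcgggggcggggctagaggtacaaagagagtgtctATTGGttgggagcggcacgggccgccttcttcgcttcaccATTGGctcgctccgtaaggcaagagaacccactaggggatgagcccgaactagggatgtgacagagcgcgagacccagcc
NPC2: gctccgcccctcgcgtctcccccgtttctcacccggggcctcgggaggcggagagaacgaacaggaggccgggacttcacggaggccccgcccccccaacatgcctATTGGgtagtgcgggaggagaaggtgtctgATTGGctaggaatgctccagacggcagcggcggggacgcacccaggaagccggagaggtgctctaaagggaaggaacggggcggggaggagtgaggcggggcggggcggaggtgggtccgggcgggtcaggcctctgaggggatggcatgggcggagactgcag
MVD: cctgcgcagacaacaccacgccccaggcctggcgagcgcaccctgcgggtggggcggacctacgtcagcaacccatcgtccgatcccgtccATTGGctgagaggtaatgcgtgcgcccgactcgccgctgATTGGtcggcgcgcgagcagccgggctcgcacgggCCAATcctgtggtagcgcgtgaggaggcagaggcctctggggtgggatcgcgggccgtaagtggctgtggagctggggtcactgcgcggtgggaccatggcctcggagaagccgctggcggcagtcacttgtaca

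In SREBF2 the core begins at position -133 relative to the start site and the CCAAT match at position -106. MSMO1 has 4 CCAAT matches in the window, EBP and MVD 3 each and NPC2 2.

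After toosendanin, the transcripts of 3 sterol enzymes and of 3 genes of sterol transport and esterification were higher, and those of 3 other members were lower. Whether the routes differ was not tested: HMGCS1 of the mevalonate route, at 0.32 ± 0.15 in the authors' deposited table (± is the deposited standard error), lay close to SOAT2, which passed at 0.34 ± 0.11. NPC2, the soluble protein that takes cholesterol out of lysosomes, rose 2.25-fold (95% interval 1.94 to 2.61), MSMO1 1.49-fold (1.29 to 1.73) and EBP 1.47-fold (1.34 to 1.60) in the authors' deposited table. MYLIP fell to 0.624 of control (0.478 to 0.813) and MVD to 0.817 (0.729 to 0.915) in the authors' deposited table. At an adjusted p under 0.05, the call used throughout for expression, the authors' deposited DESeq2 table had 6 of 27 tested members higher (22.2%) and 3 lower (11.1%), against 15.7% of all 16552 tested genes in each direction. For the 8276 genes with a mean above the median, the p-values of the authors' deposited DESeq2 table were adjusted anew. Of these genes 23.6% were higher and 24.4% lower, and of the 26 members among them 6 (23.1%) were higher and 2 (7.69%) lower. The share of members that rose thus lay near that of equally well counted genes. Wherever the shares 23.6% and 24.4% appear below, they rest on this new adjustment. Unless said otherwise, the list counts beside them use the deposited adjusted p over all tested genes of the list. The median log2 fold change of the tested members was 0.07, against -0.00023 over all tested genes in the authors' deposited table. One member, NPC2, passed a 2-fold change.

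**Figure D1:**
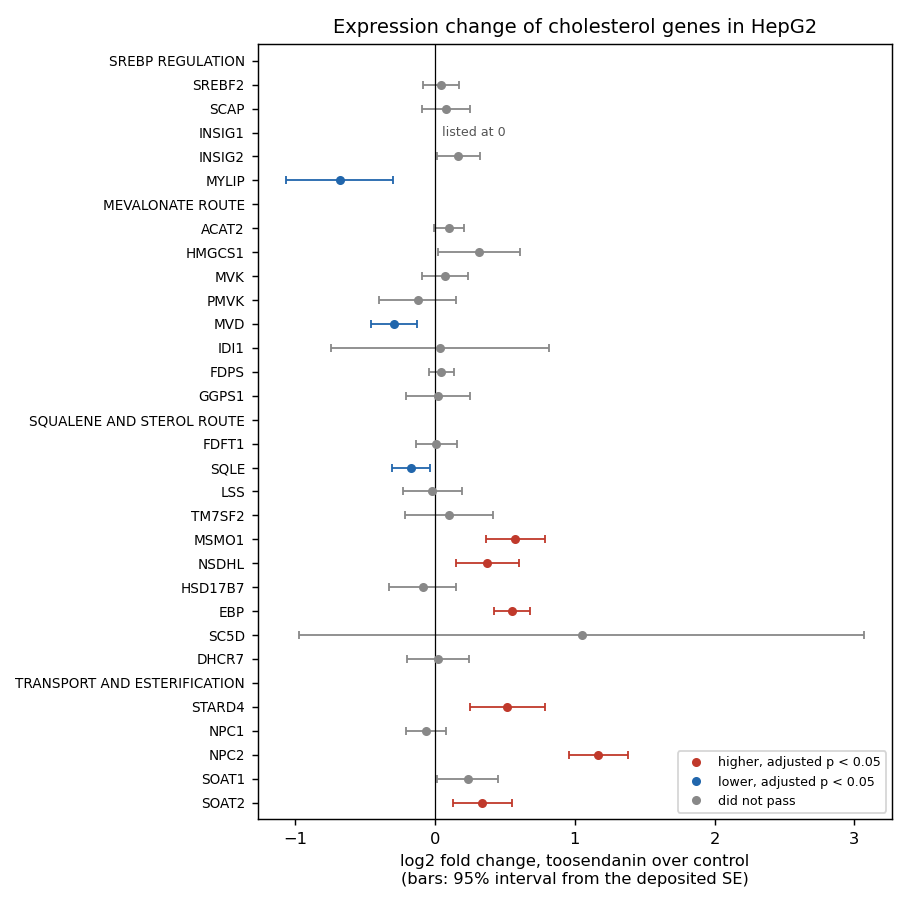
Log2 fold change of each member, toosendanin over control, with the 95% interval from the deposited standard error (horizontal bars), grouped by role; red points passed the adjusted p upward and blue points downward. The 6 red genes lie in the sterol and transport groups, the mevalonate group holds 1 blue gene, and the interval of SC5D is far wider than the others.

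Of the regulators, 1 of 4 tested genes (25%) changed and it fell. Of all tested genes 15.7% fell, and of those with a mean above the median 24.4%. MYLIP stood at a log2 fold change of -0.68 ± 0.20 with a mean normalized count of 187, adjusted p = 0.00245, in the authors' deposited DESeq2 table. Its 43 control and 16 toosendanin input counts gave -0.94 ± 0.42 (counting error) after centring over genes. SREBF2 stood at 0.04 ± 0.07 (adjusted p = 0.700, interval -0.09 to 0.17) in the authors' deposited DESeq2 table and did not pass. SCAP, the escort of SREBP, stood at 0.08 ± 0.09 (adjusted p = 0.566) in the authors' deposited DESeq2 table. INSIG2, which retains SCAP in the endoplasmic reticulum, stood at 0.17 ± 0.08 (adjusted p = 0.0999) in the authors' deposited DESeq2 table, and at 0.31 ± 0.05 from its 2158 control and 1914 toosendanin input counts. INSIG1, the other INSIG gene, has a listed mean of 0 in the authors' deposited table and no m6A region. Nothing is therefore said here about its level.

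Of the 8 genes of the mevalonate route, 0 rose and 1 fell (12.5%) by the authors' deposited DESeq2 table. Of all genes with a mean above the median, 23.6% rose and 24.4% fell. MVD, which makes isopentenyl diphosphate from mevalonate diphosphate, stood at -0.29 ± 0.08 (adjusted p = 0.00234) in the authors' deposited DESeq2 table. Its input counts, 1140 in control against 642 with toosendanin, gave -0.34 ± 0.07 after centring, close to the deposited change. HMGCS1, the synthase that makes HMG-CoA, stood at 0.32 ± 0.15 (adjusted p = 0.0940) in the authors' deposited DESeq2 table and did not pass. Its interval of 0.02 to 0.61 is wide for its mean of 8210: 96.2% of the 500 genes nearest in mean had a smaller standard error. ACAT2, the cytosolic thiolase that joins acetyl-CoA units, stood at 0.10 ± 0.05 (adjusted p = 0.157) in the authors' deposited DESeq2 table. The kinases MVK at 0.07 ± 0.08 and PMVK at -0.12 ± 0.14 missed the threshold in the authors' deposited table. FDPS, which makes farnesyl diphosphate, was measured most closely of the route, at 0.05 ± 0.05 with an interval of -0.05 to 0.14 in the authors' deposited table. GGPS1, which makes the geranylgeranyl diphosphate used to anchor small GTPases, stood at 0.02 ± 0.12 in the authors' deposited table.

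Of the 10 tested genes of the squalene and sterol route, 3 rose (30%) and 1 fell (10%), against 23.6% and 24.4% of genes with a mean above the median. MSMO1, which begins the removal of the methyl groups at carbon 4 of the sterol ring, stood at 0.57 ± 0.11 (adjusted p = 1.23e-06) in the authors' deposited DESeq2 table, and its input counts of 543 and 592 gave 0.61 ± 0.09. NSDHL, the dehydrogenase of the same demethylation, stood at 0.37 ± 0.11 (adjusted p = 0.00518) in the authors' deposited DESeq2 table, with 954 and 880 input counts giving 0.37 ± 0.07. The remaining enzyme of that step, the reductase HSD17B7, stood at -0.09 ± 0.12 (adjusted p = 0.661) in the authors' deposited DESeq2 table. EBP, the isomerase that shifts the ring double bond, stood at 0.55 ± 0.07 (adjusted p = 2.02e-15) in the authors' deposited DESeq2 table, and its 2533 control and 2625 toosendanin input counts gave 0.54 ± 0.04. For these 3 genes the deposited change and the input counts differ by less than the deposited standard error. The series lists no other libraries of RNA before pull-down, so both measures of any gene probably share reads. Their closeness is therefore no independent check, here or for MVD and SOAT2.

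SQLE, the squalene epoxidase that is a rate-controlling enzyme, was slightly lower, at -0.17 ± 0.07 (adjusted p = 0.0459) in the authors' deposited DESeq2 table. The call is lost at an adjusted p of 0.0529 when all 19077 p-values are adjusted anew. FDFT1, squalene synthase, stood at 0.01 ± 0.07 and DHCR7, the last reductase of the Kandutsch-Russell route, at 0.02 ± 0.11 in the authors' deposited table. LSS, which closes the ring to lanosterol, stood at -0.02 ± 0.11 there and at 0.35 ± 0.06 by its 1332 and 1213 input counts. TM7SF2, a sterol reductase, stood at 0.10 ± 0.16 in the authors' deposited table and at 0.36 ± 0.12 by its 317 and 291 input counts. For LSS and TM7SF2 the measures thus differ by more than the deposited standard error.

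Some members had an imprecise change despite high counts. SC5D, the desaturase before DHCR7, had a log2 fold change of 1.05 ± 1.03 in the authors' deposited table, an interval of 0.510-fold to 8.38-fold at a mean normalized count of 2001. Its standard error exceeded those of 100% of the 500 genes nearest in mean, whose median was 0.0885. The summed input counts of SC5D, 2833 in control and 2558 after toosendanin, gave 0.34 ± 0.04, and its 4 single regions between 0.27 and 0.82. IDI1, the isomerase of isopentenyl diphosphate, stood at 0.04 ± 0.40 in the authors' deposited table, and its standard error was larger than that of 98.2% of its 500 neighbours. Its input counts of 2604 and 2395 gave 0.36 ± 0.04. The errors of input changes hold counting error only, and the libraries behind the wide spread were not analysed here.

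**Figure D2:**
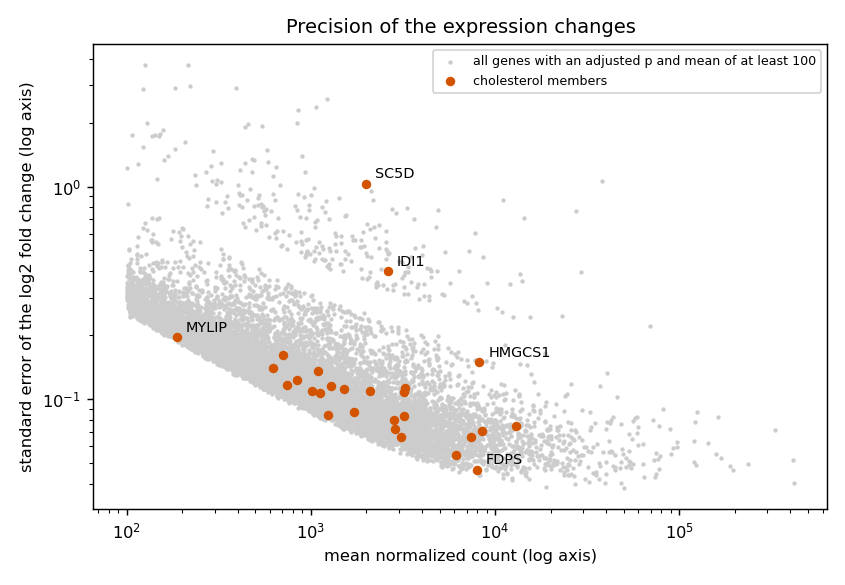
Standard error of the log2 fold change against mean normalized count, both on log axes, for all tested genes with a mean of at least 100 (grey) and for the members (orange). SC5D and IDI1 lie in the sparse band above the main cloud, with standard errors of 1.03 and 0.40, while FDPS at 0.05 lies at its lower edge.

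Of the 5 genes of intracellular transport and esterification, 3 rose (60%) and 0 fell in the authors' deposited DESeq2 table. Genes with a mean above the median rose in 23.6% and fell in 24.4%, and 5 genes are too few to set against these shares. NPC2 stood at 1.17 ± 0.11 (adjusted p = 3.59e-25) in the authors' deposited DESeq2 table, while NPC1, its membrane partner in lysosomal export, stood at -0.07 ± 0.07 (adjusted p = 0.555). NPC2 has no m6A region, so no input counts bear on it. The lysosomal protein CD68 stood at 1.41 ± 0.09 in the authors' deposited table, and its part in the result was not tested. STARD4, a soluble sterol carrier, stood at 0.52 ± 0.14 (adjusted p = 0.000796) in the authors' deposited DESeq2 table, but its 658 and 531 input counts gave 0.18 ± 0.08. SOAT2, the cholesterol acyltransferase of liver and intestine, stood at 0.34 ± 0.11 (adjusted p = 0.00666) in the authors' deposited DESeq2 table, and its 991 and 898 input counts gave 0.34 ± 0.07. SOAT1, the widely expressed acyltransferase, stood at 0.23 ± 0.11 (adjusted p = 0.0998) in the authors' deposited DESeq2 table and did not pass. Whether SOAT1 and SOAT2 differ in their change was not tested.

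Other genes of the pathway were read from 5 lists of 42 genes, of which 40 were tested. Of these 8 rose (20%) and 7 fell (17.5%) by the authors' deposited DESeq2 table, against the 15.7% of all genes in each direction. Of the 34 with a mean above the median, adjusted anew, 8 rose (23.5%) and 6 fell (17.6%). The shares of all such genes were 23.6% and 24.4%, so the share that rose lay near that of equally well counted genes. Of the sterol ring enzymes listed there, CYP51A1, which removes the methyl group at carbon 14, stood at 0.28 ± 0.07 and passed, and LBR, a sterol reductase of the nuclear envelope, stood at -0.23 ± 0.19 in the authors' deposited table and did not. In SREBP processing and sterol-regulated degradation 2 of 8 rose (25%) and 1 fell (12.5%) in the authors' deposited DESeq2 table, near or below those shares of well counted genes. RNF145, a sterol-responsive ubiquitin ligase, stood at 2.03 ± 0.22 and SPRING1, which aids cleavage of SREBP, at 1.07 ± 0.24 in the authors' deposited table. SREBF1, which encodes SREBP-1, fell by 0.33 ± 0.10 on the log2 scale in the authors' deposited table.

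Of 7 tested LXR and efflux genes, the authors' deposited DESeq2 table called 0 higher and 1 lower (14.3%). The shares were 15.7% in each direction for all tested genes, and 23.6% higher and 24.4% lower for those with a mean above the median. The gene that fell was ABCA1, the pump that loads cholesterol onto lipoproteins, at -0.75 ± 0.07 (adjusted p = 5.36e-25) in the authors' deposited DESeq2 table. The other 6 did not pass, and ranged from -0.34 ± 0.21 (ABCG5) to 0.10 ± 0.14 (LPCAT3) in the authors' deposited table. Among 13 receptors and carriers 4 rose (30.8%) and 2 fell (15.4%) in the authors' deposited DESeq2 table, against 15.7% of all tested genes in each direction. Of all genes with a mean above the median, adjusted anew, 23.6% rose and 24.4% fell. Not all of the 13 lie above that median: GRAMD1B and GRAMD1C had means of 9.48 and 2.48. LIPA, the lysosomal acid lipase that frees cholesterol from its esters, stood at 1.01 ± 0.09 and VLDLR at 0.93 ± 0.11, against LRP8, a receptor of the same family, at -0.84 ± 0.15 in the authors' deposited table. Of 10 tested isoprenoid genes, the authors' deposited DESeq2 table called 1 higher (10%) and 3 lower (30%). All tested genes had 15.7% in each direction, and those with a mean above the median had 23.6% higher and 24.4% lower. DHDDS, of dolichol synthesis, stood at 0.36 ± 0.11, RABGGTA, which prenylates Rab proteins, at -0.28 ± 0.10 and PDSS1, of coenzyme Q synthesis, at -0.71 ± 0.26 in the authors' deposited table.

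**Figure D3:**
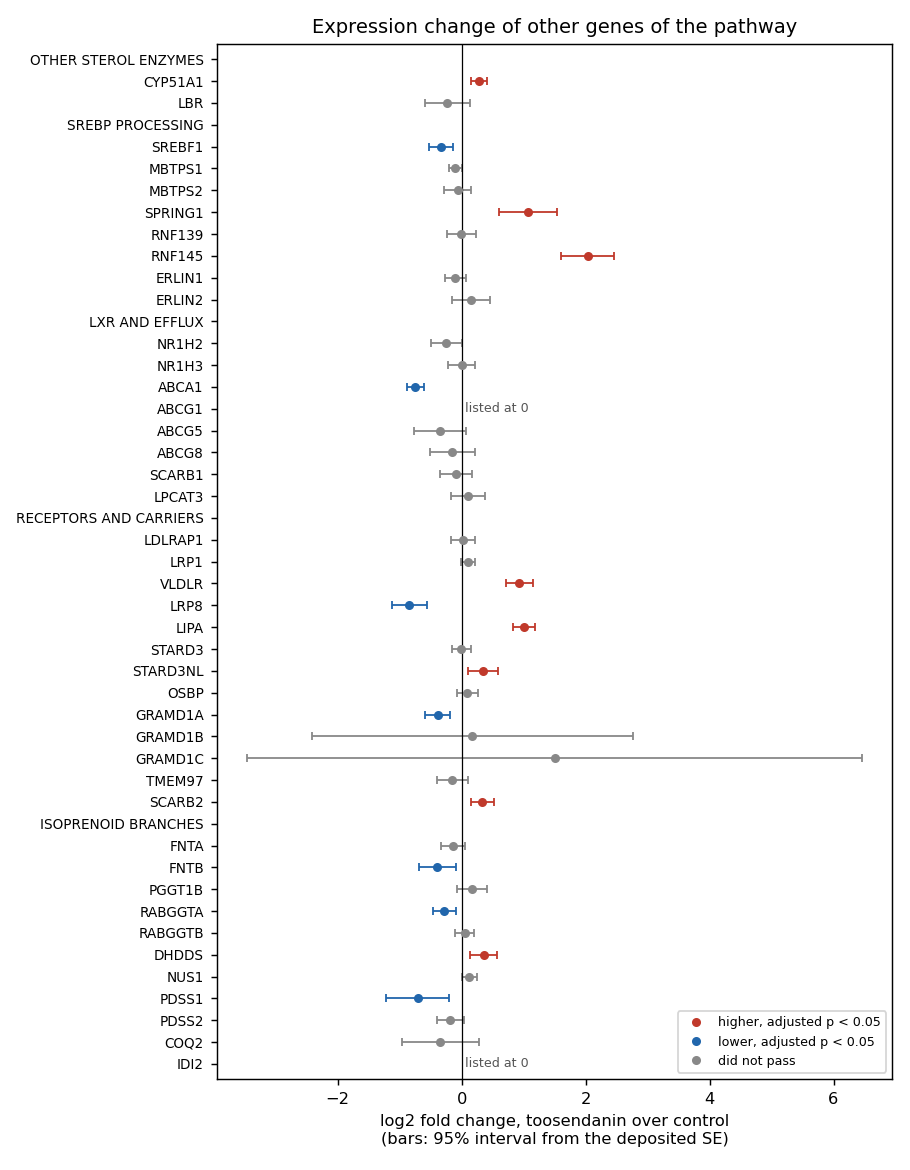
Log2 fold change of the 42 other genes of the pathway, toosendanin over control, with 95% intervals from the deposited standard error, in 5 groups; red points passed upward and blue points downward. RNF145, SPRING1 and LIPA lie highest among the red points, and LRP8 and ABCA1 lowest among the blue ones.

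The m6A level of a region was read as the log2 of control IP over input, relative to the ratio of all IP to all input counts of 1.24. It is a relative enrichment and no share of methylated molecules. Of 73 member regions with at least 50 control input counts, 20 lay above that ratio (27.4%), against 37.7% of all 32723 such regions, and their median level was -0.45 against -0.24. SREBF2 had 5 of 5 regions below it, from -1.62 to -0.83, and INSIG2 5 of 5, from -0.74 to -0.01. FDFT1 had 7 of 8 below it, with the best counted region holding 4928 IP and 8244 input counts in control. Among the higher levels were those of single regions of HMGCS1 with 7382 IP and 3667 input counts at 0.70 ± 0.03 (counting error), SC5D with 4660 and 2348 at 0.68 ± 0.04, MSMO1 with 1106 and 543 at 0.72 ± 0.08, EBP with 4242 and 2340 at 0.55 ± 0.04, and GGPS1 with 585 and 191 at 1.30 ± 0.12. The other 3 HMGCS1 regions with that many counts lay between -0.91 and -0.37, so the ratio differed between regions of 1 gene by more than counting error.

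**Figure D4:**
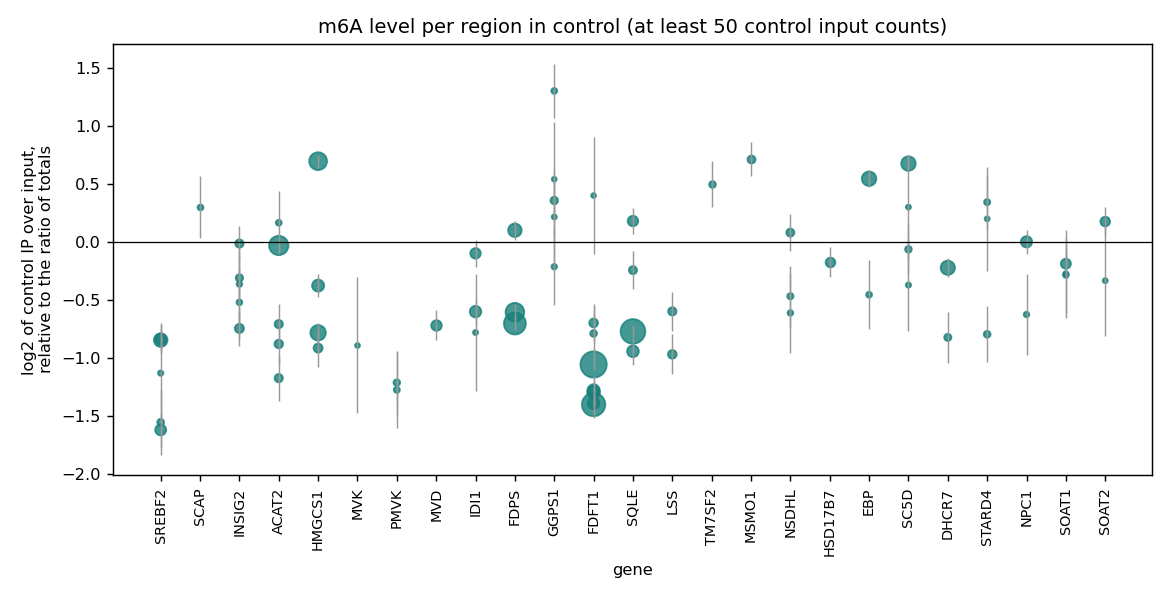
Log2 of control IP over input relative to the ratio of totals, for each member region with at least 50 control input counts; each point is a region, its area grows with the control input count, and bars are 95% counting intervals. The 5 points of SREBF2 and 7 of the 8 of FDFT1 lie below 0, at -1.62 and -1.40 at the lowest, and the highest is a GGPS1 region at 1.30.

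Changes of m6A after toosendanin passed in few member regions, and those that passed by the deposited FDR were mainly lower. Of 65 member regions with an FDR in the authors' deposited table, 7 were lower (10.8%) and 1 higher (1.54%) at an FDR under 0.05, against 6.24% lower and 2.71% higher of all 24688 such regions. Member regions were better counted, with a median of 666 control input counts against 368 for all. The deposited FDR holds counting error only. With the statistic widened to its spread over all regions 0 member regions passed, against 1.14% lower and 0.571% higher of all regions. An unadjusted p under 0.05 was then held by 7 of the 65, and the share of all regions with such a p was not computed. The deposited log2 change is not the plain ratio of the summed counts: the deposited value minus that ratio (log2) was between -0.095 and -0.0037 in the 65 member regions, and in 5 of them the sign differed. How the authors combined the libraries was not given in the sources used here. With the change taken from the summed counts, 4 member regions were lower and 4 higher (6.15% each), against 3.78% and 4.49% of all regions. With the deposited change centred on the median region, 3 were lower (4.62%) and 2 higher (3.08%), against 3.49% and 4.34%. The share of lower calls was smaller under both, in members and in all regions.

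MSMO1, whose transcript rose, had 1106 IP and 543 input counts in control and 857 and 592 after toosendanin, so that IP over input went from 2.04 to 1.45. Its log2 change was -0.50 ± 0.11 (counting error) with an FDR of 0.000185 in the authors' deposited table. EBP, whose transcript rose about as much, had 4242 and 2340 counts in control and 4459 and 2414 after toosendanin, and stood at -0.03 ± 0.05 (FDR = 0.802) in the authors' deposited table and at 0.03 by the summed counts. In SREBF2, whose transcript did not pass, a region with 887 IP and 1276 input counts in control had 466 and 876 after toosendanin, a change of -0.46 ± 0.10 (FDR = 0.000382) in the authors' deposited table and of -0.39 by the summed counts. Another SREBF2 region, with 506 and 1251 counts in control and 469 and 916 after toosendanin, stood at 0.26 ± 0.11 and did not pass (FDR = 0.124) in the authors' deposited table, but stood at 0.34 and passed (FDR = 0.0337, counting error) by the summed counts.

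SQLE had calls in both directions. A region with 1580 IP and 1122 input counts in control had 945 and 827 after toosendanin, at -0.35 ± 0.09 (FDR = 0.00214) in the authors' deposited table. The best counted SQLE region, with 5257 and 7218 in control and 3774 and 4578 after toosendanin, stood at 0.15 ± 0.04 (FDR = 0.00736) in the authors' deposited table. Summed over all its regions the gene did not pass, with its change shifted by -0.0445. That shift is the median over all regions of the deposited value minus the plain ratio of the summed counts. Whether SQLE passes without the shift was not computed. HMGCS1 had 2 lower regions: the one with 7382 IP and 3667 input counts in control had 5995 and 3221 after toosendanin, at -0.13 ± 0.04 (FDR = 0.0273), and the one with 1492 and 1558 had 1281 and 1590, at -0.25 ± 0.08 (FDR = 0.0140), in the authors' deposited table. A region of FDFT1 with 547 and 714 counts in control had 374 and 624 after toosendanin, at -0.37 ± 0.12 (FDR = 0.0351) in the authors' deposited table. A region of INSIG2 with 432 and 431 in control had 345 and 428 after toosendanin, at -0.41 ± 0.14 (FDR = 0.0485) in the authors' deposited table. These regions of FDFT1 and INSIG2 and the better counted one of HMGCS1 passed neither at an FDR under 0.01, nor with the change taken from the summed counts, nor with the deposited change centred. The best counted FDFT1 region, with 8244 control input counts, went the other way. It stood at 0.09 (FDR = 0.163) as deposited, at 0.12 (FDR = 0.0396) by the summed counts and at 0.14 (FDR = 0.0142) with the deposited change centred. An FDPS region with 5660 control input counts did not pass as deposited (FDR = 0.291). By the summed counts it was higher, at 0.13 (FDR = 0.0373). These FDRs hold counting error only.

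**Figure D5:**
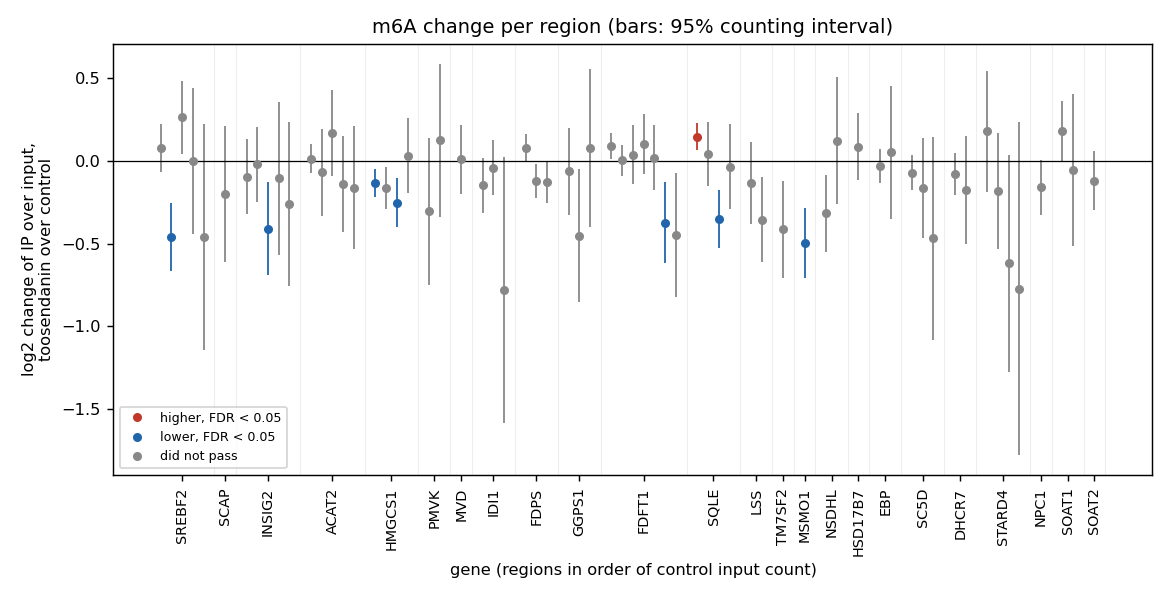
Log2 change of IP over input, toosendanin over control, for the 65 member regions with an FDR, ordered within each gene by control input count; bars are 95% counting intervals, blue points passed downward and the red point upward. MSMO1 at -0.50 and a SREBF2 region at -0.46 are the lowest blue points, and the red point is the best counted region of SQLE.

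Set side by side, an m6A region lower by the deposited FDR was held by 1 of 6 members whose transcript rose (MSMO1) and 1 of 3 whose transcript fell (SQLE). Such a region was also held by 4 of 18 members whose transcript did not pass (SREBF2, INSIG2, HMGCS1, FDFT1). NPC2, SOAT2, NSDHL, EBP and STARD4 rose with no called region; NPC2 had no region to test. MVD, which fell, had 862 IP and 1140 input counts in control and 522 and 642 after toosendanin in its only region, at 0.01 ± 0.11 in the authors' deposited table. MYLIP had 2 regions with at most 34 control input counts, and neither has an FDR. The 2 regions of MVK, which is among the 18 members that did not pass, also have no FDR. Of the 24 members with a region that has an FDR, 18 had no called region. Members held up to 9 regions, and more regions give more chances of a call. The share of all genes with a called region was not computed, so these counts per gene have no background beside them.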

How the data were processed

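RNA of HepG2 cells was measured in 12 libraries, 3 IP and 3 input per condition, made with a stranded mRNA kit with unique molecular identifiers, per the labels' protocols. The submitters' processing notes list HISAT2, StringTie and DESeq with no version. The genome build, annotation, counting settings and region caller were not given in the sources used here. The expression table is the authors' own DESeq2 comparison, per the file headers: a mean of normalized counts (a signal deposited by the authors), log2 fold change and standard error, a Wald score deposited by the authors, p-value and adjusted p. The m6A table gives, per the file headers, counts per region summed over the libraries of a condition, a log2 change of IP over input, a p-value and an FDR, all deposited by the authors. In 99.5% of 45458 regions the error implied by the deposited p matched the Poisson error of the 4 counts to 1%, so it holds no spread between libraries.

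Calls used the deposited adjusted p or FDR under 0.05; nothing was refitted, since no counts per library were used. The members and gene lists were chosen with earlier results of these data known. Named genes were all members, with full values for those called, up to 3 per other list with the smallest adjusted p, and every gene of lists of 3 or fewer; others named are the ends of a range. SPRING1 is listed as C12orf49 and was matched by synonym in RefSeq; all 28 members matched by symbol. Some genes of the other lists are not reported here and are in no count of those lists. Intervals are the estimate ± 1.96 standard errors. Input changes are log2 ratios of a gene's summed input counts, centred by the median of 7949 genes in the upper 50% of means (-0.49). Across these genes they had r = 0.94 with the deposited change, which probably rests on the same input libraries. A region statistic computed from the summed counts, not the deposited test, was tried on simulated counts. These held counting error alone, so the trial says nothing about spread between libraries. Alternatives were other thresholds, a 1.5-fold limit, new adjustments, centring, a widened statistic, restricted regions and sums per gene. Python 3.11.15, numpy 2.4.6, pandas 2.3.3, scipy 1.17.1 and matplotlib 3.10.9 were used.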

Additional observations from a re-analysis of the deposited data

How the results depend on the processing

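The 6 members that rose and 3 that fell became 1 and 1 with a change of at least 1.5-fold, which left NPC2 and MYLIP (3.7% each, against 7.6% higher and 6.69% lower of all genes). Under an adjusted p below 0.01, a new adjustment over all p-values, genes in the upper 50% of means, and centring on the median gene, 6 members rose in each and 2 or 3 fell. Of all genes, 11.9% in each direction passed at an adjusted p below 0.01, and 13.2% rose and 13.3% fell with the new adjustment. In the upper 50% of means 23.6% rose and 24.4% fell, and with centring 15.7% did each. Of the other pathway genes, 4 rose (10%, against 7.6% of all genes) and 3 fell (7.5%, against 6.69%) with the 1.5-fold limit. Under an adjusted p below 0.01, 4 in place of 7 fell (10%, against 11.9%). The 7 lower and 1 higher member regions in m6A became 3 lower and 1 higher at an FDR under 0.01. They became 4 lower and 4 higher with the change taken from the summed counts, centred on the median region or not. With the deposited change centred they became 3 lower and 2 higher, and with the widened statistic 0 and 0. Among regions above the ratio of totals in control, 3 were lower and 0 higher. With counts summed per gene, 4 of 26 genes were lower (GGPS1, HMGCS1, MSMO1, SC5D) and 0 higher. These changes per gene were shifted by -0.0445, the median over all regions of the deposited value minus the plain ratio. For MSMO1, with its 1 region, this gave -0.54 in place of -0.49. Calls per gene without the shift were not computed, so these 4 and 0 may depend on it. At least 50 input counts in both conditions left 6 lower (8.45% of 71, against 5.22% of all such regions) and 1 higher (1.41%, against 2.24%). MSMO1 was lower in each of these except with the widened statistic. Of 26 members with input counts, 8 moved by more than the deposited standard error when read from input counts, and none that was called changed direction; the cause was not tested. The values of single regions of SC5D and IDI1, the uncentred change from counts and the centred deposited change were chosen after seeing the data. No paired analysis was possible because the files used here hold no counts per library, and for that reason no replicate could be left out. Low counts limit MYLIP and the m6A regions of MVK, and 16 member regions have no FDR.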
